A study of Mus musculus with 2 samples.

Results

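Dividing CD8 T cells that lack the granzymes D to G were described in tumour-infiltrating leukocytes of 2 droplet libraries. The first comes from control mice, the second from mice that received an OX40 agonist, an antibody that stimulates the costimulatory receptor encoded by Tnfrsf4 on activated T cells. The cells were chosen by their UMIs (unique molecular identifiers, 1 per captured RNA molecule). Each had at least 2 UMIs of Cd3e, Cd3d and Cd3g summed, at least 2 of Cd8a and Cd8b1, under 5 of C1qa, C1qb, C1qc and Lyz2, under 10 of Pmel, Mlana and Dct, under 10 of Gzmd, Gzme, Gzmf and Gzmg, and at least 10 of Mki67, Top2a, Birc5, Cdk1, Ccnb2, Ube2c and Cenpf. These cycling cells numbered 455 in the control library and 343 in its treated counterpart, or 798 in all. They were drawn from 13854 kept barcodes, which had 500 or more UMIs, 200 or more genes and no more than 10% of UMIs from mitochondrial genes. CD8 T cells that met every term except the last numbered 936 and 842 and are called CD8 T cells under the cell cycle limit. Those that met every term except the granzyme term numbered 77 and 41 and are called granzyme D to G cycling cells.

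Both groups were wild-type female C57BL/6 mice, 10 weeks old at implantation, with tumours of the B16-F10 mouse melanoma line under the skin of the right flank. Leukocytes were enriched on Ficoll, sorted as CD45-positive and DAPI-negative live cells, and captured with 10x Genomics Chromium chemistry. The treated group differed by the OX40 agonist antibody. The number of pooled mice and the dose and timing of the antibody are not given in the sources used here. Each group is 1 library, so no difference between the groups has a replicate check, and the values describe these libraries. Intervals in parentheses are 95% intervals that cover counting error only.

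CD8 T cells kill infected or transformed cells by secreting perforin and granzymes, and they expand by repeated division after antigen recognition. A dividing cell first makes the enzymes of DNA replication, whose genes are driven by the E2F transcription factors. Later it makes the kinases, kinetochore and spindle proteins of mitosis, whose promoters are known for the CHR element and for CCAAT boxes bound by NF-Y. In tumours, division is known to be shared between progenitor cells that carry Tcf7 and effector or exhausted cells that carry inhibitory receptors such as PD-1 and Tim-3.

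The promoters below show these elements in example genes of the cell cycle that the cells were chosen by or that were higher in them. Each line gives the 120 bases before the start of the gene in the RefSeq annotation of GRCm38.p6, 5′ to 3′ on the strand of the gene. Capitals mark the letters searched on both strands, which were TTTCCCGC, TTTGGCGC, TTTCGCGC or TTCCCGCC for E2F, TTTGAA for the CHR, and CCAAT. Top2a (chr11:99024190-99024309, minus strand) encodes the topoisomerase that untangles sister chromatids, Cdc20 (chr4:118437344-118437463, minus strand) an activator of the anaphase-promoting complex, Hmmr (chr11:40733438-40733557, minus strand) a spindle protein, and Ccnb2 (chr9:70421555-70421674, minus strand) a mitotic cyclin. Mki67 (chr7:135716380-135716499, minus strand) encodes the Ki-67 chromosome coat protein and Birc5 (chr11:117849117-117849236, plus strand) survivin of the chromosomal passenger complex. Mcm6 (chr1:128359706-128359825, minus strand) is a subunit of the replicative helicase and Rrm1 (chr7:102441575-102441694, plus strand) the large subunit of ribonucleotide reductase.
Top2a: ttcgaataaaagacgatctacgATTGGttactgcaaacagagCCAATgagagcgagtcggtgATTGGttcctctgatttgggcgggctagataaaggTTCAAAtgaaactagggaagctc
Cdc20: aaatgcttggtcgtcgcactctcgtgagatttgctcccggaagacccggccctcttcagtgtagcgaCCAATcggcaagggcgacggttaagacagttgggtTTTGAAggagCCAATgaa
Hmmr: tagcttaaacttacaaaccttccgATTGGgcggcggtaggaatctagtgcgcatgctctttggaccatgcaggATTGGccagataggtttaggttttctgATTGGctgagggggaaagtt
Ccnb2: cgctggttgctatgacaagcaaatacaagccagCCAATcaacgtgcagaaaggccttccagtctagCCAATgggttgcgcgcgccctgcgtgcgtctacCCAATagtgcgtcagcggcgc
Mki67: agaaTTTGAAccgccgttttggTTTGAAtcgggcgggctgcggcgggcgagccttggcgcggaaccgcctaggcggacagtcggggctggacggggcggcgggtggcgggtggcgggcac
Birc5: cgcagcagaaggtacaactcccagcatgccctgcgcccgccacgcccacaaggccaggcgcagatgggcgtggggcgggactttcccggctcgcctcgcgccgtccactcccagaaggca
Mcm6: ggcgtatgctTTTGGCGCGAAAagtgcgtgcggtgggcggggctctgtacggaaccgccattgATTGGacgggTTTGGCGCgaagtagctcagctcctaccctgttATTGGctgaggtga
Rrm1: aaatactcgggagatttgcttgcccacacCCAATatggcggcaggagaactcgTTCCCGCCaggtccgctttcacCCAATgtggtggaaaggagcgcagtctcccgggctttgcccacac

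Top2a and Cdc20 hold CHR letters at positions -23 and -18 counted from the gene start, with CCAAT letters nearby. Mki67 holds 2 CHR matches, Hmmr and Ccnb2 hold 3 CCAAT matches each, and Birc5 holds none of the letters in this stretch. The replication genes Mcm6 and Rrm1 hold E2F letters, and the first 2 of the 3 in Mcm6 overlap. Both also hold 2 CCAAT matches. They are examples with E2F letters, and the replication genes Mcm5, Mcm3, Pcna, Tyms and Rrm2 hold none in this stretch. Over 250 bases before the start, E2F letters stood in 10 of 45 windows of 39 matched replication genes (22.2%), in 2 of 57 windows of 51 matched mitosis genes (3.51%) and in 2.92% of all 32851 windows. CHR letters stood in 5 of 45 replication windows (11.1%), 15 of 57 mitosis windows (26.3%) and 15.99% of all windows. CCAAT letters stood in 22 (48.9%), 38 (66.7%) and 33.8% of them. Windows of the cytotoxic and chemokine genes described further on held CHR letters in 6 of 25, CCAAT letters in 5 of 25 and E2F letters in 0 of 25. A match describes the letters and is not a binding site.

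The label of cycling CD8 T cells was checked against its markers. Cd8a, the co-receptor chain, had a UMI in 100% of control and 99.1% of treated cycling cells, at 699 (683 to 715) and 683 (663 to 703) CPM, the summed UMIs of the gene per 1000000 UMIs of those cells. Mki67 stood at 331 and 264 CPM with a UMI in 91.6% and 88.0% of cells. Top2a stood at 626 and 565 CPM in 91.6% and 90.1% of cells, and Birc5 at 427 and 452 CPM in 96.3% and 98.5%. These markers chose the cells, so their levels are a description. In CD8 T cells under the limit, which the rule kept low, Mki67 stood at 21.2 and 20.9, Top2a at 58.2 and 56.1 and Birc5 at 18.1 and 19.4 CPM. Trac, the constant part of the T cell receptor alpha chain, had a UMI in 455 of 455 and 339 of 343 cycling cells.

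**Figure D1:**
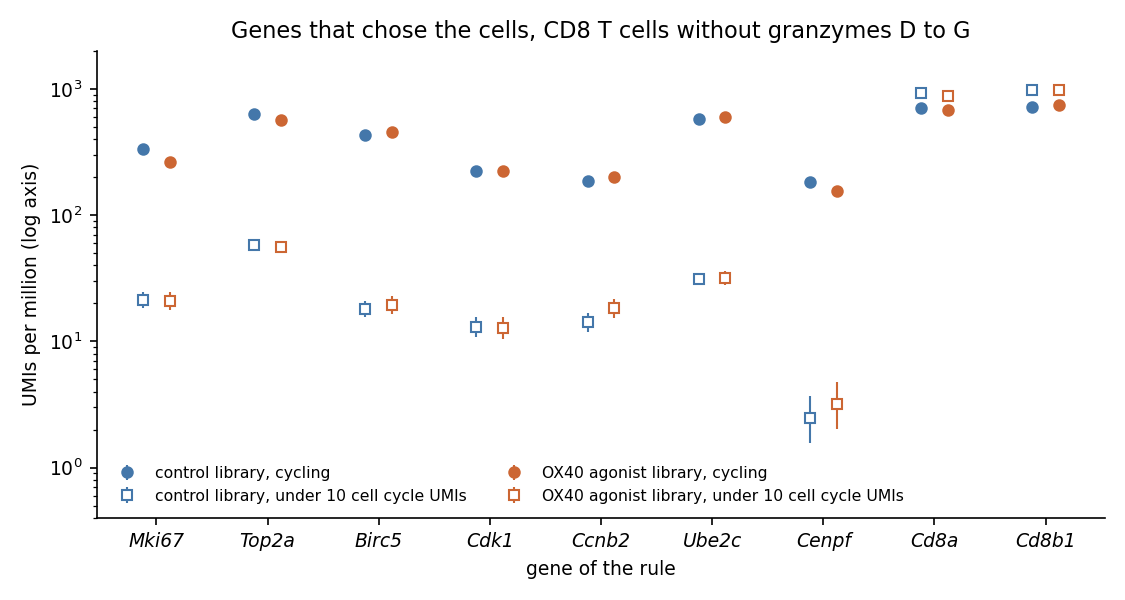
Summed UMIs in CPM (log axis) of 7 cell cycle genes and 2 CD8 genes of the rule in cycling CD8 T cells (filled circles) and CD8 T cells under the limit (open squares), with control in blue and OX40 agonist in orange; bars are 95% Poisson counting intervals. The cell cycle genes separate the cells by choice, and the control and treated points of each class lie close together.

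Other cell types were traced by markers. Of 8 B and plasma cell genes 6 were at 0 in control and 4 in treated cycling cells, and the list summed to 1.73 and 3.50 CPM. Neutrophil genes summed to 2.12 and 3.19 CPM and melanoma genes to 17.5 and 20.4 CPM. Foxp3, which defines regulatory T cells, had a UMI in 11 and 13 cells, and Cd4 in 7 and 17. The whole regulatory T cell list of 7 genes summed to 909 and 1044 CPM, of which Tnfrsf4 made up 411 and 468 CPM. Under the cell cycle limit that list summed to 1136 and 1190 CPM. Natural killer cell genes summed to 212 and 146 CPM in the cycling cells, and gamma-delta T cell genes to 21.2 and 40.4 CPM. The dendritic cell list summed to 487 CPM in the control and 888 CPM in the treated cycling cells, with Xcr1 at 0 in both, and the macrophage and monocyte list to 931 and 1149 CPM. Plac8, a gene of the second list that was found in 74.9% and 81.3% of cycling cells, made up 489 and 718 CPM of that sum, 1.47-fold (1.41 to 1.53). No barcode was removed as a doublet for the main values. A doublet score, removing the highest-scoring 323 and 450 kept barcodes, took 3 control and 7 treated cycling cells. The libraries share 18 barcode sequences, of which 1 belongs to a control cycling cell.

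The depth of the cells differed by class. Cycling cells held a median of 20557 UMIs in the control library and 17603 in its treated counterpart, ranging from 4510 to 72375 and from 2356 to 52208, and summed to 10396265 and 6577322 UMIs. CD8 T cells under the limit held medians of 8367.5 and 7173.5 UMIs, and granzyme D to G cycling cells 25824 and 24456. The rule counts raw UMIs, so deeper cells meet its cell cycle term more easily. Just inside that limit, at 10 to 12 UMIs, lay 33 control and 30 treated cells, and just outside, at 7 to 9, lay 40 and 35. At the granzyme limit, 11 and 6 cycling cells held 7 to 9 UMIs of granzymes D to G and 8 and 4 held 10 to 12, while 348 and 274 held 0.

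Cycling cells were a smaller share of the treated library, while their share of its CD8 T cells did not differ beyond counting error. They were 7.16% (6.54 to 7.82) of kept control and 4.57% (4.11 to 5.07) of kept treated barcodes, a treated-to-control ratio of 0.639 (0.554 to 0.736). All CD8 T cell barcodes were 25.1% and 17.0% of the kept barcodes, a ratio of 0.680 (0.631 to 0.732). Within CD8 T cells without granzymes D to G the cycling share was 32.7% (30.2 to 35.2) of 1391 and 28.9% (26.4 to 31.6) of 1185, a ratio of 0.885 (0.767 to 1.02). The interval of that ratio includes 1, and the median depths of the CD8 T cells differ. Each cell was therefore thinned to 5000 UMIs and called cycling at 5 or more UMIs of the 7 genes, leaving out 171 control and 241 treated shallower cells. The share was then 31.5% (28.9 to 34.2) and 30.4% (27.5 to 33.4), a ratio of 0.966 (0.826 to 1.13). By the same measure 3.23% of 186 control and 2.37% of 379 treated mature dendritic cell barcodes (median 8693.5 and 7710 UMIs) were called cycling, as were 11.3% and 13.8% of C1q macrophage barcodes (median 14451 and 13075 UMIs). No difference in the cycling share of CD8 T cells was detectable at this depth, and an interval from 0.826 to 1.13 does not show that the shares are alike. Nearly all of the 171 and 241 cells left out were under the cell cycle limit, and they were a larger part of the treated CD8 T cells. Leaving them out raises the treated share more than the control share. How much of the change from 0.885 to 0.966 came from thinning was not tested. At 3000 UMIs and a limit of 3, with 30 control and 31 treated cells left out, the ratio was 0.918 (0.788 to 1.07).

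The cycling cells ranged from mostly replication RNA to mostly mitosis RNA. Per cell thinned to 5000 UMIs, the 48 replication genes (origin licensing, replication fork and nucleotide synthesis) had a median of 28 UMIs in control and 26 in treated cells, ranging from 3 to 73 and from 2 to 63. The 61 mitosis genes (kinases and cyclins, kinetochore, spindle), without the genes of the rule, had medians of 22 and 22, ranging from 2 to 73 and from 1 to 65. More replication than mitosis UMIs were found in 257 of 454 control cells, 56.6% (51.9 to 61.2), and in 185 of 340 treated cells, 54.4%. The split is a line through a continuum, and 90 and 75 cells lay within 5 UMIs of it. Across cells of 1 library the counts of both groups had a Spearman rho of -0.14 in the control library and -0.08 in its treated counterpart, with the thinning to a fixed total shared by both. CD8 T cells under the limit had medians of 6 and 2 replication and mitosis UMIs in the control library.

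**Figure D2:**
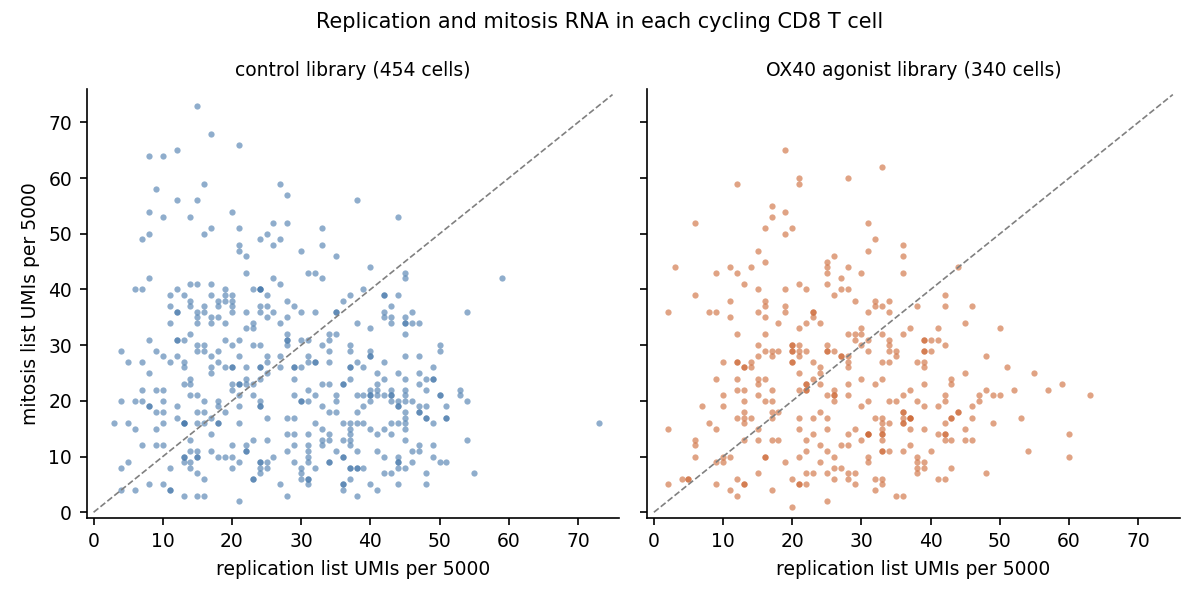
UMIs of the replication lists (x axis) against UMIs of the mitosis lists (y axis) per cycling CD8 T cell after thinning to 5000 UMIs, with 454 control cells in blue and 340 treated cells in orange; the dashed line marks equal counts. Cells fill the area on both sides of the line in both libraries, with 56.6% and 54.4% on the replication side.

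A few genes outside the 2 lists differed along that split. It was made on cell cycle RNA of these same cells, so the values are a description. Of 2679 genes compared in both libraries and not used for it, 8 were at least 2-fold higher in the mitosis-leaning cells of both libraries and 1 in the replication-leaning cells. Hells, a chromatin remodeller of replicating DNA, was at 115 CPM in replication-leaning and 49.3 CPM in mitosis-leaning control cells, and at 96.5 and 38.0 CPM in treated cells. The 8 higher with mitosis were Aspm, Arl6ip1, Tubb4b, H2afx, Reep4, Pimreg, Tuba1c and Hist1h2bc, among them a spindle pole protein, tubulins and histones. E2f1, a driver of entry into replication, was below the minimum level and stood at 47.9 against 12.6 CPM in the control and 42.1 against 5.48 CPM in the treated library. Effector and secreted products did not pass 2-fold in both libraries, and several differed in 1 library. Gzmb (granzyme B) stood at 1946 and 1603 CPM in replication- and mitosis-leaning control cells and at 1542 and 1604 CPM in treated cells. Ccl4, a chemokine, stood at 811 and 495 CPM in control and 541 and 505 CPM in treated cells. Areg, an epidermal growth factor receptor ligand, had a log2 ratio of mitosis- over replication-leaning cells of -0.66 in control and 0.89 in treated cells. Few cells carried it, with a UMI in 71 control and 40 treated cycling cells, and the 10 highest held 60.1% and 79.5% of its UMIs. In the treated library 66 of its 263 UMIs lay in 1 cell. Ccl1, another chemokine, had ratios of 0.19 and 1.39. Pdcd1, which encodes PD-1, stood at 387 and 408 CPM in control and 412 and 392 CPM in treated cells. The median depths of replication- and mitosis-leaning cells were 20970 and 18777 UMIs in the control and 19853 and 15969 in the treated library.

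Against CD8 T cells under the cell cycle limit, the cycling cells carried more RNA of many cell cycle genes that the rule did not name. Since the cells were chosen in this contrast, the values are a description and no count supports the choice. Of 2819 genes with enough UMIs, 116 (4.11%) were at least 2-fold higher in both libraries, 69 of them in the cell cycle lists, and 17 (0.603%) at least 2-fold lower. Hist1h1b, a replication-dependent linker histone, stood at 15.9 CPM under the limit and 398 CPM in cycling cells of the control library, and at 17.5 and 369 CPM in the treated library. Ccna2, the cyclin of replication and early mitosis, stood at 4.92 and 189 CPM, and at 7.58 and 186 CPM. Nusap1, a spindle microtubule protein, stood at 6.42 and 184 CPM, and at 7.44 and 184 CPM. Each of these differences was more than 10-fold in both libraries. Cdca8, a partner of survivin, stood at 12.7 and 243 CPM in the control and 13.6 and 227 CPM in the treated library. Cdc20 stood at 5.35 and 122, and at 3.58 and 121 CPM, and Hmmr at 2.35 and 119, and at 2.76 and 104 CPM. Pclaf, which binds the sliding clamp, stood at 68.8 and 755 CPM in the control library, a log2 ratio of 3.28, and had a log2 ratio of 2.95 in the treated library. Tpx2 and Cenpe, of the spindle and the kinetochore, and Cdca3, which promotes entry into mitosis, complete the 10 highest.

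Every measured gene of the replication and mitosis lists was higher in the cycling cells of both libraries. The 14 licensing genes had a median log2 ratio of 1.10 in the control library and 0.84 in its treated counterpart, the 21 replication fork genes 1.18 and 0.96, and the 13 nucleotide synthesis genes 1.11 and 0.91. Rrm1 and Rrm2, the subunits of ribonucleotide reductase, had log2 ratios of 2.18 and 3.18 in the control and 1.89 and 2.91 in the treated library, and Mcm6 ratios of 0.76 and 0.49. The mitosis lists had larger medians: 1.87 and 1.71 for 19 kinases and cyclins, 1.82 and 1.72 for 20 kinetochore genes, and 2.22 and 2.09 for 22 spindle genes. All genes compared had medians of 0.04 and 0.05. Of all genes at the 10 CPM required of list members, 48.8% in control and 48.7% in treated cells were higher, which is the reference for the counts of lists here. Genes of ribosome biogenesis and MYC (16 of 16 higher) had medians of 0.69 and 0.56, and 16 of 18 oxidative phosphorylation genes were higher, with medians of 0.24 and 0.16. Of the 20 measured genes that control entry into replication, 16 were higher. Ccnd2, an early cyclin, was lower in cycling cells, at 175 and 84.5 CPM in the control and 144 and 76.6 CPM in the treated library.

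Several genes lower in cycling cells are known from resting T cells or encode secreted products. Bcl2, an inhibitor of apoptosis, stood at 82.8 CPM under the limit and 18.1 CPM in cycling cells of the control library, and at 71.6 and 15.1 CPM in the treated library. Klf2, a transcription factor of quiescent and circulating T cells, stood at 139 and 34.0, and at 87.1 and 38.5 CPM. Ccl5, a chemokine stored by effector cells, stood at 5560 and 1859 CPM, and at 5779 and 1784 CPM, and the nuclear RNA Malat1 at 7535 and 3122, and at 7345 and 3355 CPM. All 4 were at least 2-fold lower in cycling cells of both libraries. Penk stood at 222 and 86.2 CPM, and at 110 and 28.3 CPM. With Neurl3, Lgals3, Hcst, Mxd4 and Ypel3, these genes make up the 10 lowest. Il7r, the receptor that sustains resting T cells, and Satb1, a chromatin organiser of T cells, were also among the 17, as were S100a6 and Ctla2a. Naive and central memory genes were lower in 8 of 9 measured in the control library and 9 of 10 in its treated counterpart, with medians of -0.81 and -0.88. Chemokines and other secreted products had medians of -0.70 and -0.63, and 15 of 16 cytotoxic effector genes were lower in each library, with medians of -0.47 and -0.42. The exception among the effector genes was Gzmb, at 1680 and 1850 CPM in the control and 1585 and 1619 CPM in the treated library. Inhibitory receptors were lower in 8 of 9 measured in control and 10 of 10 in treated cells, with medians of -0.53 and -0.32. Among them PD-1 RNA was near level, with Pdcd1 at 382 and 392 CPM, and at 410 and 405 CPM, and so was Tox, a transcription factor of exhausted cells, at 170 and 158, and at 177 and 174 CPM. Scaled levels depend on the rest of the RNA, and the cycling cells held more than 2 times the median UMIs, so a lower CPM does not show fewer molecules per cell. After thinning, 8 of the 17 lower and 111 of the 116 higher genes passed 2-fold in both libraries, and all 17 and all 116 kept their sign. Of the lower genes named above, Malat1, Penk, Lgals3, Ypel3, Il7r, S100a6 and Ctla2a then fell short of 2-fold in at least 1 library.

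**Figure D3:**
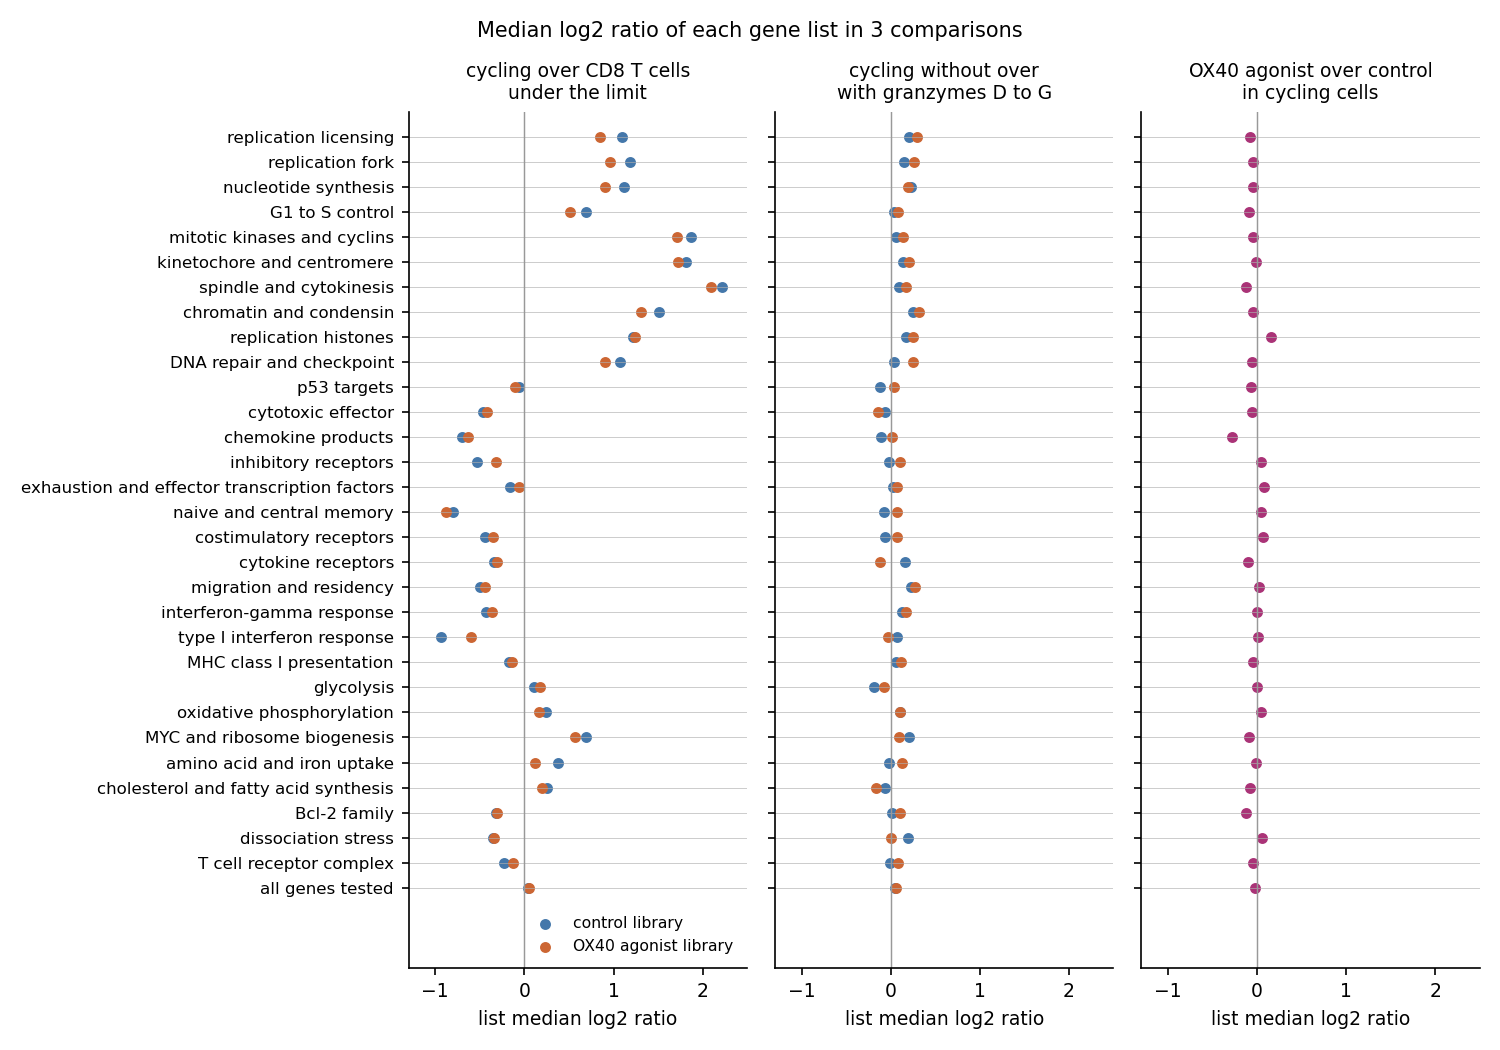
Median log2 ratio of each gene list (x axis) in cycling CD8 T cells against CD8 T cells under the cell cycle limit (left), against granzyme D to G cycling cells (middle) and in treated against control cycling cells (right), with control in blue, OX40 agonist in orange and their comparison in purple. The cycle lists stand between 0.84 and 2.22 on the left apart from the genes that control entry into replication, and the medians on the right lie between -0.28 and 0.16.

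Tcf7, which encodes the progenitor factor TCF-1, was rarely detected in the cycling cells, while Havcr2, which encodes Tim-3, was often detected. At 5000 UMIs per cell a Tcf7 UMI was found in 3 of 454 control cells, 0.661% (0.136 to 1.92), and in 5 of 340 treated cells, 1.47% (0.479 to 3.40). The unthinned shares were 2.86% and 3.21%. Under the cell cycle limit Tcf7 was found in 58 of 766 (7.57%) and 32 of 604 (5.30%) thinned cells, which has the cycling term of the rule as its contrast. C1q macrophage barcodes, which should lack Tcf7, had a UMI in 1 of 841 (0.119%) and 5 of 1206 (0.415%), and mature dendritic cell barcodes in 19.9% and 21.6%. The Tcf7 shares in cycling cells rest on few cells and lie below the second of these classes and little above the first. The share with a Havcr2 UMI was 43.0% (38.3 to 47.6) among control cycling cells and 44.7% (39.3 to 50.2) among treated ones at that depth, and 79.1% and 78.4% unthinned. CD8 T cells under the limit had a thinned Havcr2 UMI in 47.8% and 47.4%, and granzyme D to G cycling cells in 64.5% and 58.5%. Frequent Havcr2 was thus not particular to the cycling cells described here. Mature dendritic cell barcodes had a Havcr2 UMI in 3.76% and 2.11%, and C1q macrophage barcodes in 15.6% and 14.9%. Both genes together were found in 0 of 454 and 0 of 340 cycling cells. With Tcf7 in 3 and 5 cells, these counts cannot show whether the genes exclude each other.

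Between the treated and the control library most genes of the cycling cells were at nearly the same level. A gene entered the comparison with 50 CPM or more, 30 or more UMIs and detection in 5% of the cycling cells of its higher library. Of these 2791 genes, 2649 (94.9%) differed by less than 1.2-fold, on the scale of log2 CPM after adding 10 CPM. A gene was counted as different when that ratio was at least 1.5-fold and the Poisson intervals did not overlap. By this rule 6 genes (0.215%) were lower and 4 (0.143%) higher in the treated library, and the median log2 ratio of all genes was -0.02. The 6 lower genes were Spp1, Penk, Ccl1, Serpinb9b, Klrc2 and Gm10076, and the 4 higher were Cd74, H2-Aa, H2-Ab1 and H2-Eb1.

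**Figure D4:**
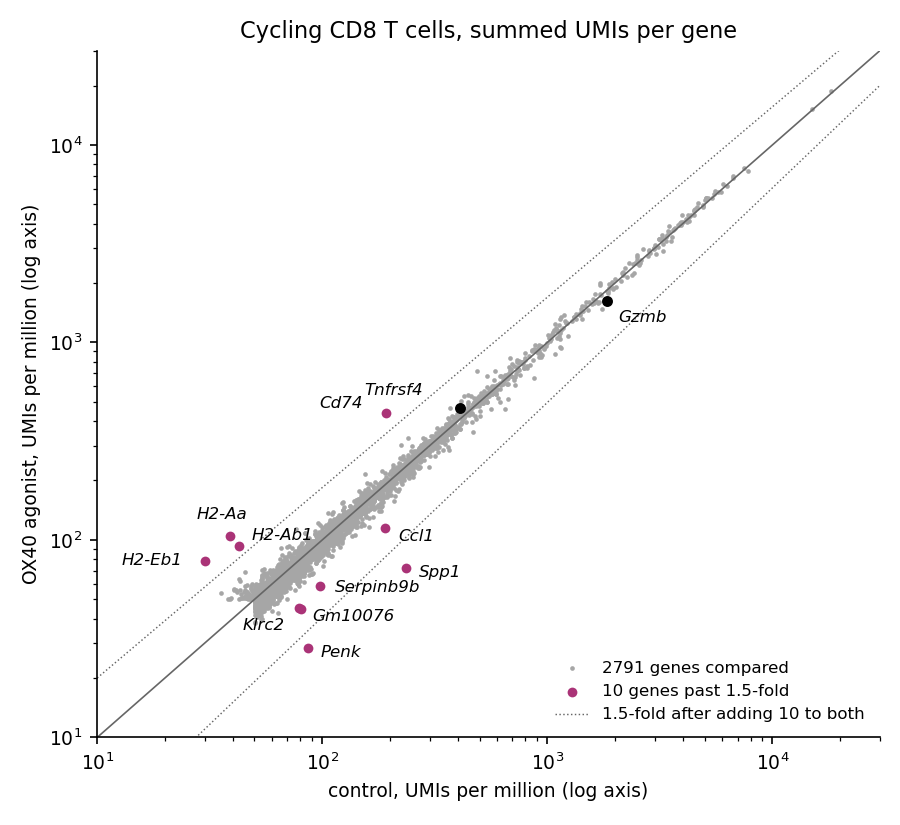
Summed UMIs in CPM of 2791 genes in control (x axis) and treated (y axis) cycling CD8 T cells, both axes log scaled; purple points are the 10 genes past 1.5-fold, dotted lines mark 1.5-fold after adding 10 to both values, and black points are Tnfrsf4 and Gzmb for reference. Nearly all genes lie along the diagonal, with Spp1, Penk and Ccl1 below it and the class II genes above it.

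Secreted products led the lower genes. Spp1 (chr5:104435118-104441050, plus strand, mm10) encodes osteopontin and stood at 236 (227 to 246) CPM in control and 71.9 (65.6 to 78.7) CPM in treated cycling cells, 0.305-fold (0.276 to 0.336). A Spp1 UMI was found in 45.1% of control and 35.6% of treated cells, and after thinning in 21.8% and 14.7%. The highest cell held 166 UMIs in the control library and 71 in its treated counterpart, and the 10 highest cells held 39.5% and 50.3% of all Spp1 UMIs, so few cells carry much of the sum. Mature dendritic cell barcodes had a thinned Spp1 UMI in 3.23% and 6.60%, and C1q macrophage barcodes, which make the gene, in 46.3% and 46.0%. Penk (chr4:4133531-4138819, minus strand) encodes the enkephalin precursor and stood at 86.2 and 28.3 CPM, 0.328-fold (0.279 to 0.385), with a UMI in 24.2% and 9.91% of cells, and after thinning in 15.4% and 6.18%. The 10 highest cells held 43.8% of its UMIs in control and 73.7% in treated cells. Ccl1, a ligand of the receptor Ccr8, stood at 191 and 115 CPM, 0.602-fold (0.553 to 0.655), in 33.4% and 20.7% of cells, and after thinning in 19.4% and 12.6%. The 10 highest cells held 44.7% and 62.0% of its UMIs. By the split described above, Ccl1 stood at 179 and 67.9 CPM in replication-leaning control and treated cells and at 206 and 193 CPM in mitosis-leaning ones, a contrast with no replicate check. For these 3 genes both the share of cells with a UMI and the summed level were lower in the treated library.

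Serpinb9b (chr13:33027416-33041884, plus strand), of the family of granzyme-inhibiting serpins, stood at 98.2 and 58.7 CPM, 0.598-fold (0.530 to 0.672). A UMI was found in 19.1% and 9.62% of cells, and after thinning in 14.3% and 5.88%, and the 10 highest cells held 35.5% and 71.8% of the UMIs. The family has close copies, so its counts are uncertain. Klrc2 (chr6:129647496-129660689, minus strand) encodes an activating NKG2 receptor and stood at 80.4 and 44.7 CPM, 0.556-fold (0.485 to 0.636), in 67.3% and 45.8% of cells, and after thinning in 31.3% and 18.2%. Reads of Klrc2 can be confused with those of the neighbouring Klrc1, an inhibitory NKG2 receptor, which stood at 162 and 144 CPM, 0.887-fold. Unlike Spp1, Klrc2 was spread thinly, with 16 UMIs in its highest control cell and 12.2% of its UMIs in the 10 highest. Gm10076, a predicted gene outside the rule for naming that is listed because the count holds it, stood at 79.1 and 45.0 CPM.

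The lower genes were not equally low in every CD8 class. In CD8 T cells under the cell cycle limit Spp1 stood at 203 and 41.1 CPM, 0.203-fold, while in granzyme D to G cycling cells it stood at 572 and 619 CPM, 1.08-fold (0.981 to 1.19). Penk was lower in the treated library in both other classes, at 0.497-fold under the limit and 0.591-fold with granzymes D to G. Ccl1 likewise stood at 0.550-fold and 0.513-fold. Serpinb9b stood at 0.630-fold under the limit and 0.900-fold (0.8004 to 1.01) with granzymes D to G, where it was high in both libraries at 462 and 416 CPM. Klrc2 stood at 0.669-fold and 0.815-fold (0.602 to 1.09). Whether these ratios differ between classes has no replicate check, since the granzyme D to G class holds 77 and 41 cells of 1 library each.

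**Figure D5:**
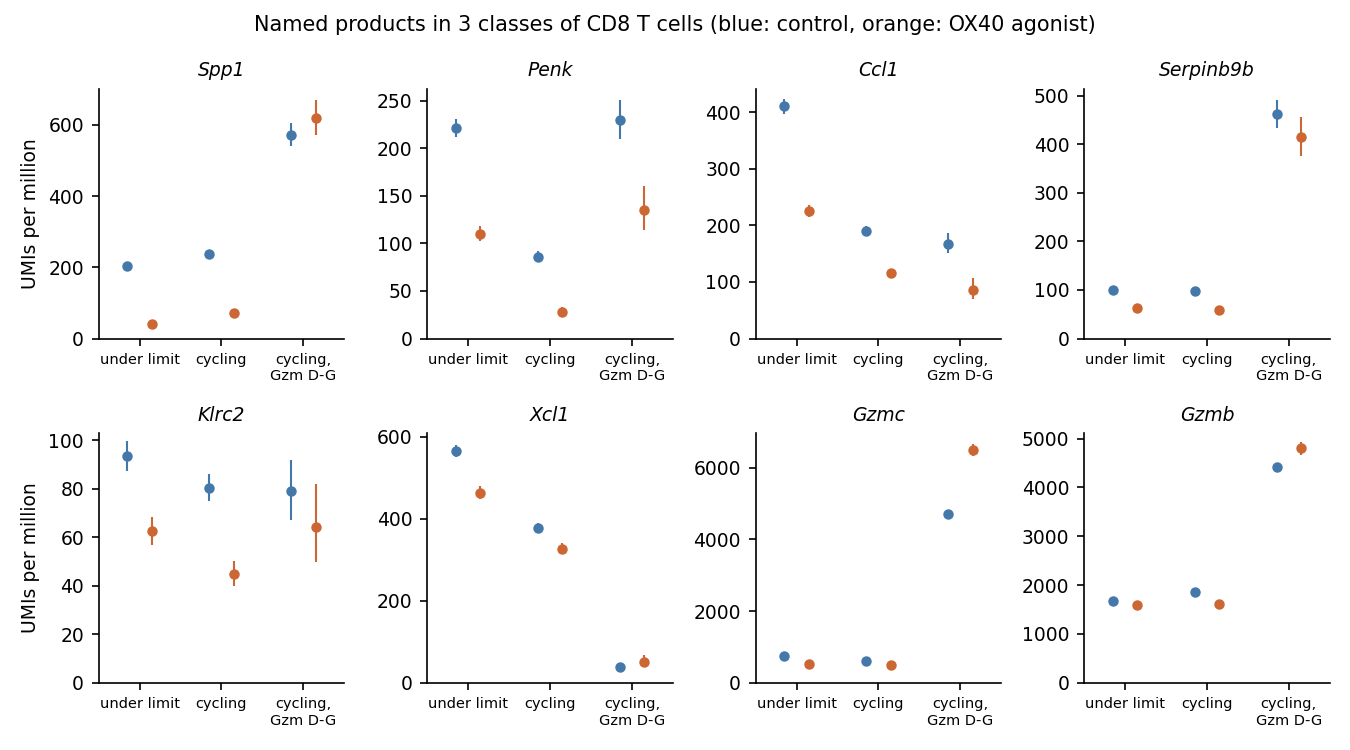
Summed UMIs in CPM (y axis) of 8 genes in CD8 T cells under the cell cycle limit, cycling CD8 T cells without granzymes D to G, and cycling CD8 T cells with them (x axis), with control in blue and OX40 agonist in orange and 95% Poisson counting intervals as bars. Spp1 is lower in the treated library in the first 2 classes and not in the third, where it stands at 572 and 619, and Xcl1 is lowest in the third at 39.2 and 51.5.

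The 4 higher genes were those of MHC class II and its invariant chain, which present antigen in dendritic cells and macrophages. H2-Aa stood at 39.1 and 105 CPM, H2-Ab1 at 42.8 and 93.0 CPM, H2-Eb1 at 30.1 and 78.1 CPM and Cd74 at 193 and 442 CPM. They fall outside the rule for naming because 1 treated cell held 20.7% to 33.7% of each gene's UMIs, and they are named after their values were seen. Unthinned, a UMI was found in fewer treated than control cells, with H2-Aa in 31.4% and 20.99%, H2-Ab1 in 36.7% and 29.4%, H2-Eb1 in 24.8% and 21.6% and Cd74 in 77.1% and 69.7%. After thinning, H2-Aa had a UMI in 9.47% of control and 9.12% of treated cells and H2-Ab1 in 13.9% and 14.7%. H2-Eb1 then had one in 6.39% and 8.82% and Cd74 in 38.8% and 41.5%. The lower treated share was thus not kept for H2-Ab1, H2-Eb1 and Cd74. At least 5 H2-Aa UMIs were found in 8 control and 16 treated cells, with 152 and 172 in the highest. The dendritic cell list given above was higher in the treated library, but it holds some of these genes, with Cd74 as its highest. Its sum is therefore no separate evidence. Under the cell cycle limit H2-Aa stood at 0.941-fold, H2-Ab1 at 0.935-fold, H2-Eb1 at 1.06-fold and Cd74 at 0.967-fold. In the smaller class of granzyme D to G cycling cells the same genes stood at 7.96-fold, 4.78-fold, 9.98-fold and 3.31-fold. Without the 24 control and 31 treated cells that held 5 class II UMIs or 2 Cd4 and Foxp3 UMIs, H2-Aa, H2-Ab1 and H2-Eb1 had log2 ratios of -0.43, -0.14 and -0.19 and Cd74 one of 0.31, against 1.23, 0.96, 1.14 and 1.16 with them. H2-Aa, H2-Ab1 and H2-Eb1 were themselves used to leave those cells out. Their ratios were therefore lowered by the choice itself and do not test the difference. With those cells left out, 1 gene was past the fold upward, which was Plac8 and none of the 4. After removal by the doublet score Cd74 alone of the 4 was past the fold, with log2 ratios of 0.69 for H2-Aa, which fell under 50 CPM, 0.41 for H2-Ab1, 0.58 for H2-Eb1 and 0.77 for Cd74.

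The pathways of division themselves were close to level between the groups. Licensing genes had 12 of 14 members lower with a median log2 ratio of -0.07, replication fork genes 16 of 21 lower with -0.04, and nucleotide synthesis genes 8 of 13 lower with -0.04. None of their members was past the fold. Spindle genes had 17 of 22 lower with a median of -0.12, where Prc1, which bundles the central spindle, stood at 139 and 106 CPM, Tpx2 at 185 and 149 CPM and Kif11, a spindle motor, at 122 and 103 CPM. Kinetochore genes had 9 of 20 higher and a median of -0.01, with Cenpe at 135 and 105 CPM. Replication histones differed in sign, with 13 of 18 higher and a median of 0.16, but many of these genes are near-identical copies whose reads are uncertain. Ccne1, the cyclin that starts replication, stood at 46.6 and 32.5 CPM, below the minimum for the comparison. Mki67 was at 331 and 264 CPM, the largest difference among the 7 cell cycle genes of the rule.

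Effector, inhibitory and costimulatory genes of the cycling cells shifted little. Cytotoxic effector genes had 6 of 16 higher and a median of -0.05. Gzmb stood at 1850 (1824 to 1876) and 1619 (1588 to 1650) CPM and Prf1, the pore-forming perforin, at 565 and 460 CPM. Ifng (interferon gamma) stood at 420 and 440 CPM, 1.05-fold (0.998 to 1.10). Chemokines and other secreted products had 9 of 10 lower with a median of -0.28 and 3 past the fold, Spp1, Penk and Ccl1, of which Ccl1 alone is a chemokine. Ccl4 stood at 672 and 518 CPM, Ccl3 at 923 and 844 CPM and Ccl5 at 1859 and 1784 CPM. This list was chosen with earlier results on Spp1, Penk and Ccl1 known, so its median is no independent evidence of its direction. Inhibitory receptors had 5 of 9 higher with a median of 0.04, with Pdcd1 at 392 and 405, Havcr2 at 118 and 129 and Lag3 at 231 and 229 CPM. Costimulatory receptors had 6 of 9 higher with a median of 0.07. Tnfrsf4 (chr4:156013843-156016612, plus strand), the target of the antibody, stood at 411 and 468 CPM, 1.14-fold (1.09 to 1.19), and its relatives Tnfrsf9 at 582 and 644 CPM and Tnfrsf18 at 303 and 336 CPM.

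A few single genes of other lists stood further from the diagonal without passing 1.5-fold. Ikzf2, a transcription factor of the Ikaros family, stood at 155 and 217 CPM, a log2 ratio of 0.46. Cd69, an early activation and residency antigen, stood at 76.4 and 113 CPM, and the chemokine receptor Cxcr4 at 45.4 and 68.9 CPM, both at 0.51. In the opposite direction Zeb2, a factor of terminal effector cells, stood at 78.1 and 59.6 CPM, a log2 ratio of -0.34. Genes of ribosome biogenesis and MYC had 13 of 16 lower with a median of -0.09, and oxidative phosphorylation genes 13 of 18 higher with 0.05. Transcription factors of exhausted and effector cells had 11 of 17 higher with 0.08. Among all 6960 genes at the 10 CPM required of list members, 2835 were higher and 4125 lower, which is the reference for these counts.

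Against granzyme D to G cycling cells, the cycling cells without them had 1 higher and 12 lower genes among 2692 compared (0.0371% and 0.446%). The rule used granzymes D to G here, so this is again a description. Xcl1 (chr1:164931644-164935527, minus strand), the chemokine that attracts Xcr1-bearing dendritic cells, stood at 39.2 CPM with granzymes D to G and 376 CPM without in the control library, and at 51.5 and 327 CPM in the treated library. In CD8 T cells under the cell cycle limit Xcl1 stood at 565 CPM in control and 463 CPM in treated cells. A high level was thus not particular to the cycling cells described here. Gzmc (chr14:56231441-56234656, minus strand), a close relative of granzymes D to G whose reads may be shared with them, stood at 4701 and 615 CPM, and at 6494 and 498 CPM. Gzmb stood at 4419 and 1850, and at 4803 and 1619 CPM, and Prf1 at 1333 and 565, and at 1406 and 460 CPM. Serpinb9b, Spp1, Penk and Areg were also among the 12, with Gipc2, Myo10, AA467197, Serpine2 and Il1r2. After thinning all 12 kept their sign and 7 passed 2-fold in both libraries. Penk, Areg, Gipc2 and Myo10 then fell under the minimum level for the comparison, and Il1r2 under 2-fold in the control library. The cycle lists were close, with medians of 0.21 and 0.29 for licensing and 0.09 and 0.17 for spindle genes.

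The secreted and cytotoxic products were unevenly spread over the cycling cells. At 5000 UMIs per cell the variance of Gzmc over control cells was 52.8 times its mean and over treated cells 17.6 times, where counting alone gives 1. The ratios were 21.4 and 21.3 for Ccl3, 19.3 and 17.4 for Ccl4, 16.7 and 13.7 for Xcl1, 15.9 and 12.3 for Ccl1, and 13.9 and 3.76 for Spp1. A Gzmc UMI was found in 185 of 454 control and 112 of 340 treated cells at that depth. Cells with it more often carried Serpinb9b, with a UMI in 22.2% (16.4 to 28.8) against 8.92% (5.80 to 12.98) of control cells, and in 15.2% (9.10 to 23.2) against 1.32% (0.272 to 3.80) of treated cells. Perforin followed, with Prf1 in 84.3% against 63.9% of control and 83.0% against 54.4% of treated cells. Gzmk, a granzyme of less differentiated effector cells, was found in 23.2% against 35.7% and in 17.9% against 35.5%. Xcl1 was found in 27.0% (20.8 to 34.0) against 29.0% (23.6 to 34.8) of control cells and in 29.5% against 25.0% of treated cells, with overlapping intervals. Gzmc-bearing cells were deeper before thinning, at medians of 22676 against 18839 UMIs in the control and 20993.5 against 16594.5 in the treated library, and the part of depth in these shares was not tested. These genes were picked for this description after their levels had been seen.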

How the data were processed

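The deposited matrices hold raw UMI counts per gene and barcode for 31053 genes, 1 library per group. Per the submitters' processing notes the authors used Cell Ranger and build mm10, and per the file headers its version was 3.1.0. Other settings are not given in the sources used here. Live cells are taken as DAPI-negative, per the labels' protocols, although the design text gives the opposite sign.

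Cells were chosen with the limits given in the report. Summed UMIs were scaled to a total of 1000000 (CPM), and log2 ratios taken after adding 10 CPM. Shares have Clopper-Pearson and summed UMIs Poisson 95% intervals, and ratios of counts an exact conditional interval. These cover counting error only, treat UMIs as independent and leave out variation between cells and animals. With 1 library per group no test was run. Scripts were tested on simulated data. Shares of cells with a UMI are given unthinned where not said to be thinned (to 5000 UMIs).

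Named genes are the 10 highest and 10 lowest log2 ratios past the fold of each comparison, up to 4 members of each described list by absolute log2 ratio, Tnfrsf4 and the genes of the rule. Mitochondrial, ribosomal protein, Gm and Rik genes, receptor segments and genes with over 20% of their UMIs in 1 cell were left out. Genes named beyond this rule were chosen after their values were seen. The members and the 30 pathway and 11 cell type lists were chosen with earlier results of these data known. List members at 10 CPM or more were counted. Positions are from GENCODE M21 (GRCm38, the same build as mm10).

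Alternatives changed the limits, the added CPM, the scaling, the filter, the fold, the thinning and doublet removal (a simulated-neighbour score, 0.8% of barcodes per 1000 removed). Python 3.11.15, numpy 2.4.6, scipy 1.17.1, pandas 2.3.3, scikit-learn 1.9.0 and matplotlib 3.10.9 were used.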

Additional observations from a re-analysis of the deposited data

How the results depend on the processing

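The lower levels of Spp1 and Penk in treated cycling cells passed 1.5-fold under all 16 alternatives with this comparison, with log2 ratios from -1.77 to -1.23 and from -1.57 to -0.80. Klrc2 passed in 14, Ccl1 in 13 and Serpinb9b in 12, and all 5 kept their sign in all 16. The count of lower genes, 6 in the report, was 2 with 50 CPM added, 2 at a fold of 2 and 13 with a filter of 10 CPM. The count of higher genes, 4 in the report, was 1 after doublet removal, 1 without cells with 5 class II or 2 Cd4 and Foxp3 UMIs (an alternative chosen after seeing the data), 8 when scaled without mitochondrial and ribosomal protein UMIs, 7 after thinning and 14 with a filter of 10 CPM. Without those cells H2-Ab1 turned to -0.14, H2-Aa to -0.43 and H2-Eb1 to -0.19, but these genes had been used to leave the cells out. Against CD8 T cells under the limit, thinning left 8 lower genes. Scaling without the cell cycle lists, whose genes then leave the count, gave 50 higher ones, against 47 of the 116 outside those lists. Against granzyme D to G cycling cells, thinning gave 4 higher and 7 lower genes, and that scaling 2 higher. The share with Tcf7 was 2.86% unthinned in control and 0% at 3000 UMIs in treated cells. The share with Havcr2 was 29.9% and 31.3% at 3000 UMIs and 79.1% and 78.4% unthinned. The treated-to-control ratio of the cycling share ranged from 0.586 to 0.682 over kept barcodes. Over CD8 T cells without granzymes D to G it ranged from 0.812 to 0.898 unthinned, and over all CD8 T cells it was 0.940. At equal depth, with shallower cells left out, it ranged from 0.918 to 1.002 over CD8 T cells without granzymes D to G. Between treated and control cells, 17 of the 30 list medians kept their sign under all 17 alternatives. The other 13, with medians of at most 0.07 in size before any change of setting, changed sign in 36 of 510 list and alternative pairs in all, among them kinetochore genes, the interferon responses, glycolysis and amino acid uptake, and Xcl1 turned in 1 of 16. No paired analysis was possible because each group is 1 library. Counting depth limits genes under 50 CPM, and the number of libraries limits every difference between the groups.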

Other observations

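Receptor segments differed between the libraries, although gene expression reads cover few of them. A UMI of Trav16, an alpha chain V segment, was found in 72 of 455 control cycling cells (157 UMIs) and in 3 of 343 treated cycling cells (3 UMIs). Under the cell cycle limit it was found in 97 of 936 control and 3 of 842 treated CD8 T cells. Any Trav segment was found in 116 of 455 and 56 of 343 cycling cells, so Trav16 made up much of the control total. Trbv2, a beta chain segment, was found in 15 control and 27 treated cycling cells. Reads of the Trav16 copies are hard to tell apart, and Trav16n was found in 12 control and 16 treated cycling cells. Which receptor each cell carries was not measured, and how many mice contributed cells is unknown here.

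Gzma, the granzyme of many circulating effector cells, lay below the minimum level for the comparison. It stood at 48.4 CPM in control and 12.01 CPM in treated cycling cells, with a UMI in 34 and 25 cells. The 10 highest cells held 92.6% of its control UMIs, and 1 of them held 244. The chemokine Ccl9, also below the minimum, stood at 36.9 and 13.7 CPM, with a UMI in 84 and 34 cells.

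The most unevenly spread gene over the cycling cells was Gm42418, a predicted gene, with a variance of 86.4 times the mean over control and 59.2 times over treated cells. Cxcl2, a chemokine of myeloid cells, had ratios of 29.7 and 38.7 with a UMI in 5.51% and 8.53% of cells, and the heat shock gene Hspa1a ratios of 18.2 and 24.4 in 7.05% and 5.88% of cells.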
